A study of Macaca mulatta with 2 samples.

Results

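Adrenomedullin, its receptor CALCRL and the receptor's accessory proteins were followed through 2 single-cell libraries of macaque trabecular meshwork, the filtering tissue through which aqueous humour leaves the eye. The 5 genes ADM, CALCRL, RAMP1, RAMP2 and RAMP3 were taken by name from the 24037 features of the deposited matrices, each matching 1 feature (ENSMMUG00000016387 for ADM, ENSMMUG00000009447 for CALCRL, ENSMMUG00000040675 for RAMP1, ENSMMUG00000002150 for RAMP2 and ENSMMUG00000047334 for RAMP3). They were selected on their levels by cell type and library, measured in these same matrices, so those levels are given as a description with no test. The study compared tissue of rhesus macaques (Macaca mulatta) with spontaneous glaucoma and of healthy controls, asking which cells and pathways act in the opening and closing of the outflow tissue. One library was labelled glaucoma and 1 normal, both from tissue digested with collagenase and captured as whole cells with a droplet 3′ kit. The labels give no number of animals or eyes, and no age, sex or treatment. With 1 library a group, a difference between the libraries has no replicate check: animal, dissection and library cannot be told apart from disease, and every interval printed here covers counting error only.

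Adrenomedullin is a secreted peptide that relaxes vessels and holds the endothelial barrier together. CALCRL is a receptor that works only with a partner of the RAMP family: with RAMP1 it forms the receptor for calcitonin gene-related peptide (CGRP), and with RAMP2 or RAMP3 it forms the adrenomedullin receptors. These receptors signal mainly by raising cyclic AMP, and adrenomedullin acting on lymphatic endothelium is required for lymphatic vessels to form. ADM is also a known target of hypoxia-inducible transcription factors.

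After cell filtering, 8337 glaucoma barcodes with 30011671 unique molecular identifiers (UMIs) and 5385 normal barcodes with 21696437 UMIs remained, at median depths of 2751 and 2702 UMIs per cell. Among these, 11 barcode sequences occurred in both libraries. The cells fell into 24 clusters, built without the 5 genes and named from marker genes. The largest trabecular meshwork-like cluster of each library was led by CYTL1, CHI3L1 and ANGPTL7 or by PLA2G2A, CYTL1 and CHI3L1, with 6 and 8 of 10 meshwork markers. Those clusters differed between the libraries: cluster 1 held 82.4% of the glaucoma trabecular meshwork-like cells and cluster 11 held 51.3% of the normal ones. Stromal fibroblast-like cells came from clusters 0 (50.4%) and 7 (47.2%) in glaucoma and mostly from cluster 0 (78.6%) in normal cells, with 7.34% from cluster 7. Cluster 7 had 9 of 12 stromal markers, but only 1 of them was among its 10 leading genes. BMP3 and MGARP led it and also cluster 1, so its stromal name is uncertain. Stromal ratios of the whole group therefore compare different mixes of clusters. There were 550 glaucoma but 33 normal lymphatic-type endothelium-like cells, so that group was left out of counts of calls.

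Over all kept cells, levels are given as CPM, the UMIs of a gene over all UMIs of the cells named, scaled to 1000000. ADM was at 65.2 CPM in glaucoma and 78.7 in normal cells, and CALCRL at 81.6 and 85.0. RAMP1 was at 169 and 82.9 CPM, and RAMP2 at 161 and 45.7. The ligand and the receptor thus lay close together in the libraries (log2 ratio of glaucoma over normal -0.27 for ADM and -0.06 for CALCRL), while both accessory proteins were higher in the glaucoma library (1.02 for RAMP1 and 1.82 for RAMP2). RAMP3 gave 8 UMIs in glaucoma and none in normal cells. These whole-library values mix cell groups whose shares differ between the libraries, and the values within groups follow.

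A gene was called higher or lower within a cell group where the CPM values differed 2-fold or more and the exact 95% interval of the ratio excluded 1. With a minimum of 50 cells a library and 100 UMIs a gene, 9 named groups could be compared, and 17 pairs of a gene and a group, in 5 of them, reached the minimum. The unnamed cluster 3, with 4 more pairs of which 1 was called, is not in this count. Of the 17 pairs, 5 were higher in glaucoma cells, 1 was lower and 11 fell between, so that 6 of 17 were called. The background was 8.94% over all genes of all 9 groups under the same minimum (3.41% higher and 5.53% lower). The higher pairs were RAMP1 in trabecular meshwork-like, vascular endothelium-like and macrophage-like cells and RAMP2 in trabecular meshwork-like and vascular endothelium-like cells, the former at 12.3 and 2.87 CPM. The lower pair was ADM in trabecular meshwork-like cells. None of the 5 pairs of CALCRL was called. The minimum of 100 UMIs is a sum over both libraries, which some higher pairs reached through glaucoma cells. RAMP1 gave 299 against 15 UMIs in vascular endothelium-like and 245 against 15 in macrophage-like cells. RAMP2 gave 138 against 15 in trabecular meshwork-like cells. Since the genes were chosen with these values in view, the count is a description.

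**Figure D1:**
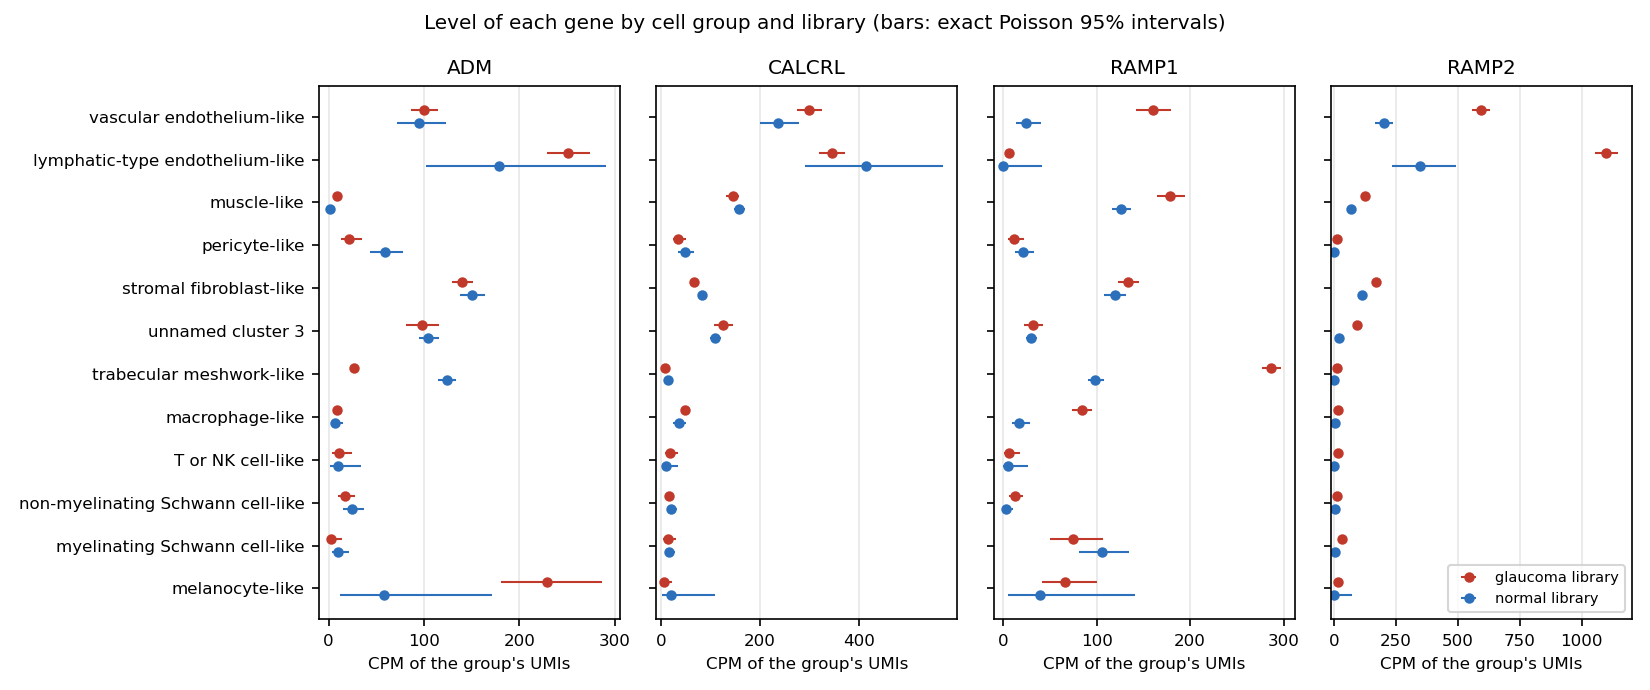
Level of ADM, CALCRL, RAMP1 and RAMP2 (horizontal axes, CPM of the UMIs of each cell group) in 12 cell groups (vertical axis), with the glaucoma library in red, the normal library in blue and bars for exact Poisson 95% intervals. RAMP2 was highest in both kinds of endothelium-like cells in both libraries, at 1099 CPM in lymphatic-type cells of the glaucoma library, while in trabecular meshwork-like cells ADM was lower and RAMP1 higher in glaucoma.

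ADM, the ligand, had several sources. Lymphatic-type endothelium-like cells of the glaucoma library carried 251 CPM, melanocyte-like cells 229 and stromal fibroblast-like cells 140. The intervals of the first and second overlapped, and stromal fibroblast-like cells lay below both. Vascular endothelium-like cells (99.7 CPM) and the unnamed cluster 3 (97.7 CPM), whose leading genes GPHA2, PI16, SFRP4 and CHI3L1 mix stromal and meshwork markers, could not be separated by their intervals. In the normal library the order began with stromal fibroblast-like cells at 150 CPM, then trabecular meshwork-like cells at 124, cluster 3 at 104 and vascular endothelium-like cells at 95.1, the last 3 with overlapping neighbours. The 33 normal lymphatic-type cells carried 179 CPM from 16 UMIs, 31.3% of them in 1 cell. At the low end, muscle-like cells carried 8.88 CPM in glaucoma and 1.93 in normal cells. T or NK cell-like cells, which serve as a group not known for the gene, carried 10.4 and 9.37 CPM from 5 and 2 UMIs.

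Small clusters held the highest ADM levels of all. The 68 normal cells of cluster 20, a stromal fibroblast-like cluster led by EGFL6, PI16 and TNMD, carried 501 CPM, and only 3 glaucoma cells fell in it. The 29 glaucoma cells of cluster 22, which stayed unnamed and was led by TAC1, CRHBP and NDUFA4L2, carried 383 CPM with a UMI in 65.5% of cells. No normal cell fell in cluster 22. Both clusters come almost entirely from 1 library and were not compared.

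ADM was the 1 gene called lower, in glaucoma trabecular meshwork-like cells. It was detected in 10.4% of 1815 glaucoma cells (302 UMIs, 26.8 CPM) and in 33.7% of 674 normal cells (649 UMIs, 124 CPM), a log2 ratio of -2.21 (interval -2.41 to -2.01). Median depths were 5571 and 7697 UMIs, and with every cell thinned to 1000 UMIs the shares were 2.06% and 7.85%. T or NK cell-like cells showed ADM in 0.623% of cells at a median of 1350 UMIs and 1.77% at 1744. In this cell group 10.7% of all genes were called in either direction, and 0.515% of the genes had a ratio below that of ADM. In pericyte-like cells ADM was also lower in glaucoma, at 21.7 against 59.0 CPM (-1.44, interval -2.33 to -0.62). Those 17 and 48 UMIs were under the minimum for a call. Muscle-like cells, under the minimum as well, went the other way at 8.88 against 1.93 CPM.

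Part of that difference went with which clusters the cells came from. In cluster 1 ADM was at 15.1 CPM against 56.0 (log2 ratio -1.89), in cluster 11 at 82.3 against 159 (-0.95), and in cluster 14 at 88.1 against 89.5 (-0.02). The direction was thus lower in clusters 1 and 11, with intervals below 0, and the levels of cluster 14 lay within counting error of each other. With each cluster given the same weight in both libraries, the ratio of the whole group moved to -1.14. The normal library drew 38.0% of its ADM UMIs from trabecular meshwork-like cells and the glaucoma library 15.4%. In stromal fibroblast-like cells ADM was at 140 and 150 CPM (log2 ratio -0.10, interval -0.28 to 0.07), and cluster 0 alone gave 209 against 120 CPM (0.80).

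CALCRL, the receptor, was mainly endothelial and muscular. Vascular endothelium-like cells carried 300 CPM in glaucoma and 236 in normal cells, with a UMI in 47.7% and 32.2% of cells (25.6% and 22.0% at 1000 UMIs). Lymphatic-type endothelium-like cells carried 345 and 414 CPM, the latter from 37 UMIs. Muscle-like cells followed with 144 and 158 CPM, then cluster 3 with 125 and 109 and stromal fibroblast-like cells with 66.3 and 82.9. The order of these groups was the same in both libraries apart from the lymphatic-type cells, too few to be ranked in the normal one, and the intervals of vascular and muscle-like cells did not meet in either. Macrophage-like cells carried 47.5 and 35.5 CPM and pericyte-like cells 34.5 and 47.9.

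In trabecular meshwork-like cells CALCRL was near the level of T or NK cell-like cells. It reached 7.90 CPM in glaucoma and 12.4 in normal cells. T or NK cell-like cells gave 16.7 (interval 7.19 to 32.8) and 9.37 (1.13 to 33.8), from only 8 and 2 UMIs. At 1000 UMIs CALCRL was seen in 1.11% and 1.06% of meshwork-like cells, against 0.993% and 1.83% of T or NK cell-like cells. The receptor gene was therefore not detectable above that imprecise reference at this depth. RAMP1, one of its partners, was abundant in the same cell group. Between the libraries CALCRL ratios ran from -0.65 in trabecular meshwork-like cells to 0.42 in macrophage-like cells, with 0.34 (interval 0.08 to 0.62) in vascular endothelium-like cells and -0.13 (-0.30 to 0.04) in muscle-like cells. Muscle-like cells held 44.4% of the CALCRL UMIs of the normal library and 18.6% of those of the glaucoma library, in which they were 8.40% of kept cells against 19.6%. The cell filter bore on CALCRL more than on the other genes: the barcodes removed held 36.4% of its UMIs in glaucoma and 19.4% in the normal library, beside 22.6% and 13.4% of all UMIs. Under a stricter filter of 1000 genes and 10% mitochondrial UMIs, the muscle-like ratio was -1.21 and was called lower. The median mitochondrial share of the kept muscle-like cells was 8.86% in glaucoma and 7.20% in normal cells, and its part in the stricter result was not tested.

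RAMP1, the CGRP-receptor partner, was the main accessory protein gene of the trabecular meshwork-like cells. Glaucoma trabecular meshwork-like cells carried 287 CPM with a UMI in 59.0% of cells, the highest level of any group there, and held 63.8% of the library's RAMP1 UMIs. The normal cells carried 98.6 CPM with a UMI in 32.0% of cells, below muscle-like cells (126 CPM) and stromal fibroblast-like cells (119 CPM). At 1000 UMIs the meshwork shares were 21.0% and 9.52%, against 0.662% and 0.917% in T or NK cell-like cells. The log2 ratio was 1.54 (interval 1.41 to 1.68). This value too followed the clusters: cluster 1 carried 327 CPM against 250 (0.39) and cluster 11 carried 141 against 60.2 (1.23). Cluster 14 went the other way at a low level, 9.12 against 26.7 CPM (-1.55, interval -3.21 to -0.08). It held 6 and 14 UMIs, under the minimum. With the same cluster weights the ratio was 0.49, under the 2-fold needed for a call.

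Elsewhere RAMP1 differed most in vascular endothelium-like and macrophage-like cells. Vascular endothelium-like cells gave 299 UMIs and 160 CPM in the glaucoma library but 15 UMIs and 24.6 CPM in the normal one, a log2 ratio of 2.70 (interval 1.96 to 3.56), with 3.52% of all genes called in that group. Detection was 24.6% against 4.89% of cells, and 12.3% against 1.32% at 1000 UMIs. Macrophage-like cells gave 84.3 and 17.2 CPM (2.30, interval 1.55 to 3.15), with 7.75% of genes called and detection of 8.18% against 0.571% at 1000 UMIs. Both ratios stayed called under each alternative in which they could be computed, between 2.40 and 2.88 for vascular endothelium-like cells and between 2.09 and 2.85 for macrophage-like cells. Neither muscle-like cells, at 179 and 126 CPM (0.50), nor stromal fibroblast-like cells, at 133 and 119 CPM (0.16), were called. Myelinating Schwann cell-like cells carried 74.7 and 105 CPM, from too few UMIs to be compared. Lymphatic-type endothelium-like cells stood apart from vascular ones, with 6.46 CPM (13 UMIs in 550 cells) in the glaucoma library and no UMI in the 33 normal cells.

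RAMP2, the adrenomedullin-receptor partner, was at its highest level in endothelium-like cells. Lymphatic-type cells of the glaucoma library carried 1099 CPM (interval 1054 to 1146) with a UMI in 88.5% of cells, and vascular cells carried 594 CPM (559 to 630) with a UMI in 73.1%. In the normal library the 33 lymphatic-type cells carried 347 CPM from 31 UMIs and the 307 vascular cells 202 CPM from 123 UMIs. Of the 4843 glaucoma RAMP2 UMIs, lymphatic-type and vascular cells held 2212 and 1108. Of the 992 normal ones, most lay elsewhere, with 372 in stromal fibroblast-like and 363 in muscle-like cells. Stromal fibroblast-like cells came next with 172 and 113 CPM, then muscle-like cells with 125 and 70.0 and cluster 3 with 93.1 and 20.6. All remaining groups with at least 50 cells were at or below 32.4 CPM in glaucoma and 6.59 CPM in normal cells.

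Between the libraries RAMP2 was higher in the glaucoma library in vascular endothelium-like cells, with a log2 ratio of 1.56 (interval 1.29 to 1.84) that stayed between 1.42 and 1.65 under all 12 alternatives. A UMI was seen in 73.1% of glaucoma and 30.6% of normal cells, and in 42.4% and 20.3% at 1000 UMIs. Muscle-like cells gave 0.84 (0.63 to 1.04) and stromal fibroblast-like cells 0.61 (0.43 to 0.80), both short of 2-fold. The muscle value ran from -0.29 under the stricter filter to 1.18 with every barcode, and 2 of 12 alternatives called it higher. The stromal value depended on the grouping of cells: 8 of 12 alternatives called it higher, with values up to 1.67, and cluster 0 alone gave 290 against 125 CPM (1.21). In stromal fibroblast-like cells 13.8% of all genes were called, and the background was shifted, with a median log2 ratio of -0.25 over all its genes. Cluster 3 gave 2.18 (1.76 to 2.61), where 99.9% of genes had a lower ratio.

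By cluster the direction of RAMP2 was the same in every cluster that reached the minimum. Of 7 clusters with 50 cells in each library and 100 UMIs of the gene, all 7 had a higher level in the glaucoma library with an interval above 0, and 6 reached 2-fold. The 100 UMIs are a sum over both libraries, which clusters 1 and 7 reached through glaucoma cells (116 against 2 and 191 against 10 UMIs). All clusters come from the same 2 libraries, and the gene was chosen with these values in view, so the count is a description. Over all genes of the 15 clusters with enough cells, 18.1% had an interval above 0, 27.8% one below 0 and 2.58% were called higher. The same count was 5 of 9 above and 2 of 9 below for RAMP1, 2 of 6 above and 1 of 6 below for CALCRL, and 1 of 7 above and 2 of 7 below for ADM. The cluster ratios of RAMP2 ran from 0.80 in cluster 17, a vascular cluster led by RNASE1 and PECAM1, to 2.82 in cluster 1, a trabecular meshwork-like cluster where it rested on 116 UMIs against 2 and on levels near those of T or NK cell-like cells. In RefSeq's gene order for the assembly T2T-MMU8v2.0, RAMP2 lies between EZH1 and VPS25, whose whole-library log2 ratios were -0.24 and 0.34, far from the 1.82 of RAMP2.

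**Figure D2:**
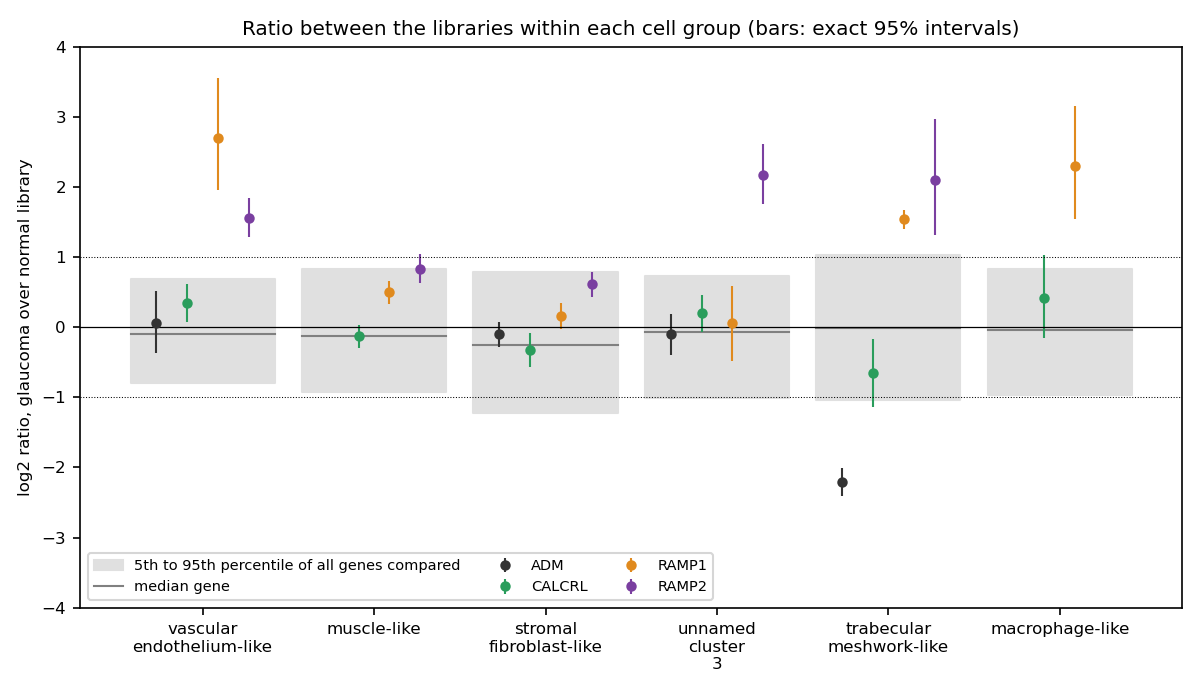
Log2 ratio of glaucoma over normal CPM (vertical axis) for ADM, CALCRL, RAMP1 and RAMP2 in 6 cell groups (horizontal axis), with exact 95% intervals as bars, the 5th to 95th percentile of all genes compared in the group as a grey band and the median gene as a grey line. Outside the bands lay RAMP2 in vascular endothelium-like (1.56), cluster 3 (2.18), trabecular meshwork-like (2.10) and, at the edge, muscle-like cells (0.84), RAMP1 in vascular endothelium-like (2.70), macrophage-like (2.30) and trabecular meshwork-like cells (1.54) and ADM in trabecular meshwork-like cells (-2.21). CALCRL lay inside them.

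RAMP2 counts in cells other than endothelium were set beside the summed counts of 13 vascular endothelial markers (PECAM1, CDH5, VWF and others). Free endothelial RNA would carry both, in a ratio that depends on the endothelial cells it came from. For every 100 marker UMIs, vascular endothelium-like cells held 5.56 RAMP2 UMIs in glaucoma and 2.07 in normal cells, and lymphatic-type cells 15.5 and 5.06. Stromal fibroblast-like cells held 77.4 and 40.7, muscle-like cells 55.9 and 38.3, and cluster 3 held 71.3 and 14.8. In these 3 groups RAMP2 thus exceeded the endothelial ratio in both libraries. Myelinating Schwann cell-like cells did so too, at 52.0 and 16.7, from only 13 and 4 RAMP2 UMIs. The part of free RNA in these counts was not tested. Pericyte-like cells held 2.10 and 0: in the normal library none of 331 cells had a RAMP2 UMI, which allows a UMI in up to 0.906% of cells at their median depth of 2288 UMIs, although the endothelial markers summed to 476 CPM there.

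Trabecular meshwork-like cells held 8.83 and 2.12 RAMP2 UMIs per 100 marker UMIs, close to the vascular values. Their RAMP2 call (12.3 against 2.87 CPM, log2 ratio 2.10) lay at a level no higher than the 18.7 CPM of glaucoma T or NK cell-like cells. That reference rests on 9 UMIs (interval 8.57 to 35.6). At 1000 UMIs RAMP2 was seen in 1.00% of glaucoma and in none of the normal meshwork-like cells. The T or NK cell-like shares were 0.331% (1 cell, interval up to 1.83%) and none. The part of free RNA in this difference was not tested. All 13 endothelial markers were detected in the glaucoma trabecular meshwork-like cells and 12 in the normal ones, at sums of 139 and 135 CPM.

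**Figure D3:**
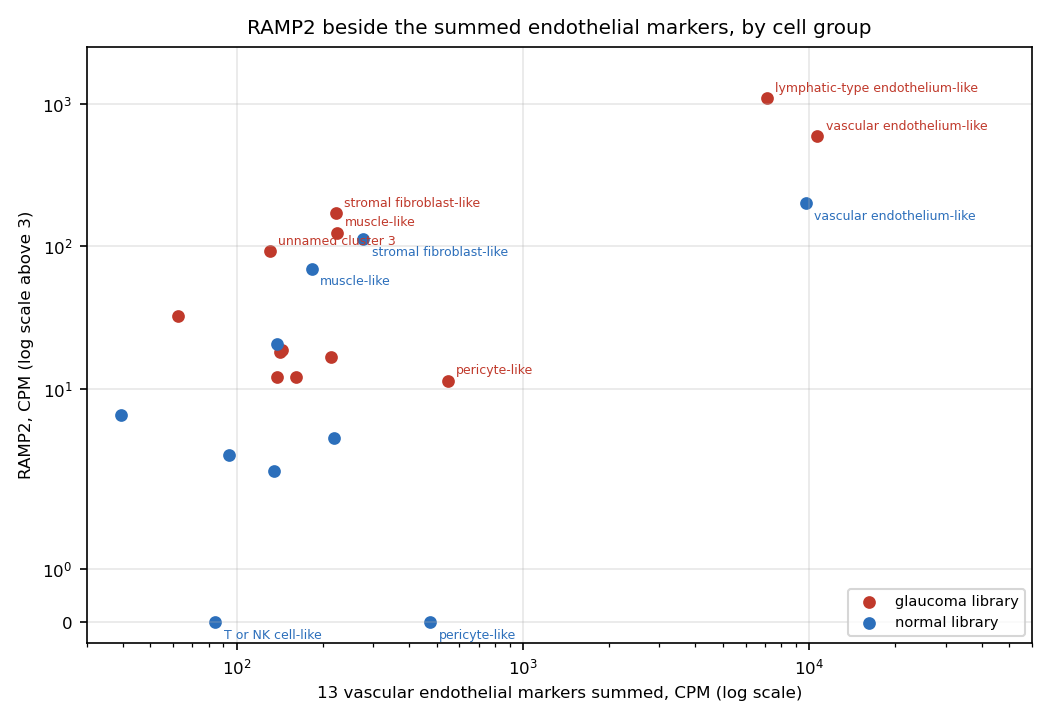
RAMP2 (vertical axis, CPM, log scale above 3) against the summed level of 13 vascular endothelial markers (horizontal axis, CPM, log scale), 1 point for each cell group with at least 50 cells, glaucoma library in red and normal library in blue. Stromal fibroblast-like and muscle-like cells sit far to the left of the endothelium-like points at 70.0 to 172 CPM of RAMP2, while normal pericyte-like cells, with more marker signal, sit at 0.

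The 2 largest muscle-like clusters differed in accessory protein. Cluster 4, led by MYH11, CHRM3 and ACTA2 and holding DES among its leading genes, carried 194 CPM of CALCRL in glaucoma and 164 in normal cells, with 201 and 87.9 CPM of RAMP2 and 109 and 49.8 of RAMP1. Cluster 9, led by RERGL and ACTG2, carried 87.9 and 154 CPM of CALCRL, 22.8 and 10.5 of RAMP2 and 295 and 359 of RAMP1. The RAMP2 level was thus higher in cluster 4 and the RAMP1 level higher in cluster 9, in both libraries. Their behaviour between libraries also parted: the log2 ratio of RAMP1 was 1.13 in cluster 4 and -0.28 in cluster 9, and that of CALCRL was 0.24 and -0.80. Because cluster 4 made up 37.9% of glaucoma and 59.8% of normal muscle-like cells, the value of the whole group mixes clusters in different shares. The group also holds cluster 19, with ACTA2, CCK and CYTL1 among its leading genes, at 10.3% of glaucoma and 1.90% of normal muscle-like cells. Its 20 normal cells were too few to be compared. The difference between clusters within a library was not tested, since the cells of a library are not replicates.

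**Figure D4:**
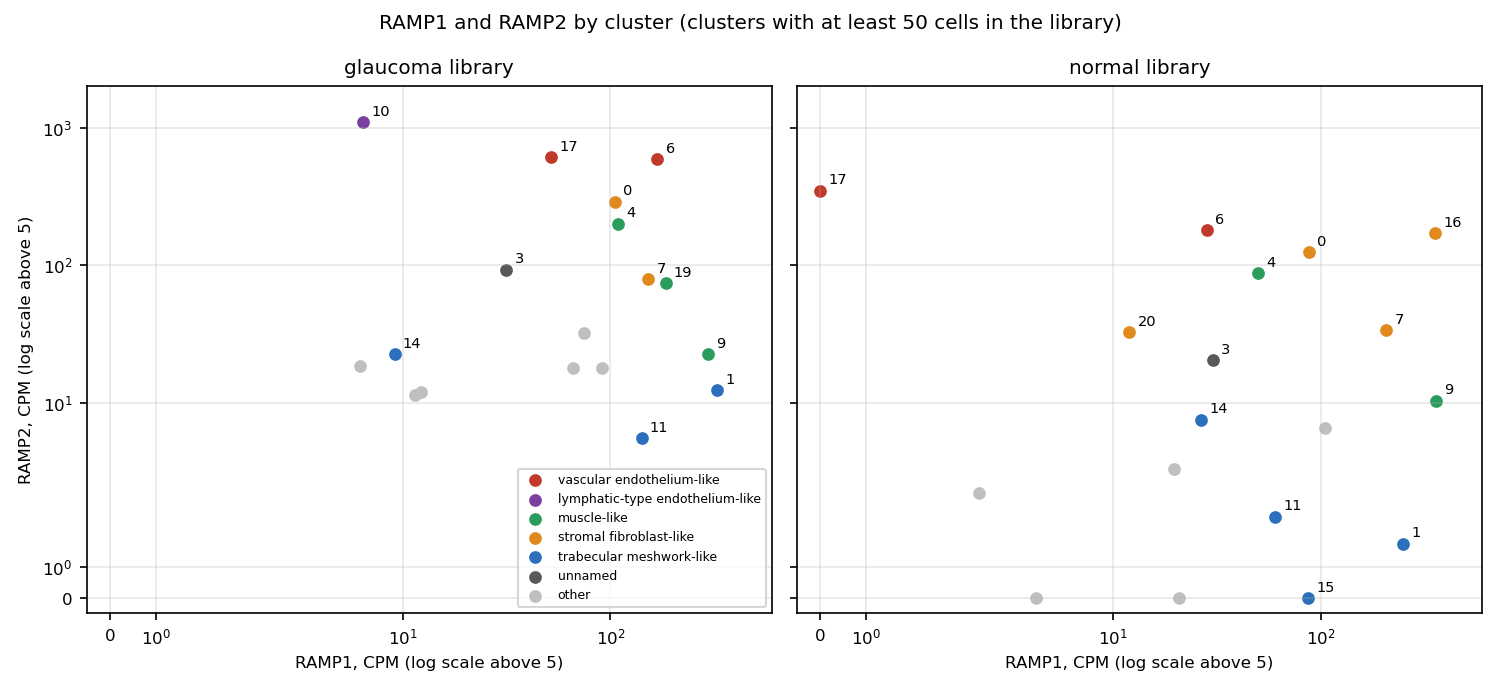
RAMP2 against RAMP1 (both in CPM, log scale above 5) for each cluster with at least 50 cells in the library, glaucoma on the left and normal on the right, coloured by cell group and numbered by cluster. Muscle-like cluster 9 lies low and to the right of cluster 4 in both libraries, the lymphatic-type cluster 10 lies at the upper left, and trabecular meshwork-like clusters lie along the bottom.

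Within the endothelium, cells were split again into 6 sub-clusters. Only sub-clusters 3 and 4 had enough markers to be named, and the others are described by their main cell group and leading genes. Sub-cluster 5, with the pericyte markers COX4I2 and PDGFRB among its leading genes, held 37 glaucoma and 14 normal cells and is not described. Sub-cluster 4, with GJA5, HEY2 and BMX among its leading genes and 5 of 9 arterial markers, had no ADM UMI in its 127 cells, which allows up to 12.7 CPM. Sub-clusters 1 and 2, vascular cells with VWF and GPIHBP1 among their leading genes, carried 99.6 and 124 CPM of ADM over both libraries, and sub-clusters 0 and 3, both led by CCL21 and MMRN1, carried 283 and 213. Lymphatic-type cells were thus the highest and arterial-like cells the lowest for the ligand. CALCRL was also lowest in the arterial-like cells, at 142 CPM in glaucoma and 148 in normal cells, against 304 and 267 in sub-cluster 1. RAMP2 did not follow that order, with 675 and 327 CPM in arterial-like cells and 596 and 204 in sub-cluster 1. RAMP1 was carried by sub-clusters 1 and 2 of the glaucoma library, at 170 and 188 CPM, and was at 9.16 and 6.74 CPM in the CCL21 sub-clusters. In the normal library sub-clusters 1 and 2 gave 21.1 and 37.5 CPM of RAMP1 from 3 and 12 UMIs.

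**Figure D5:**
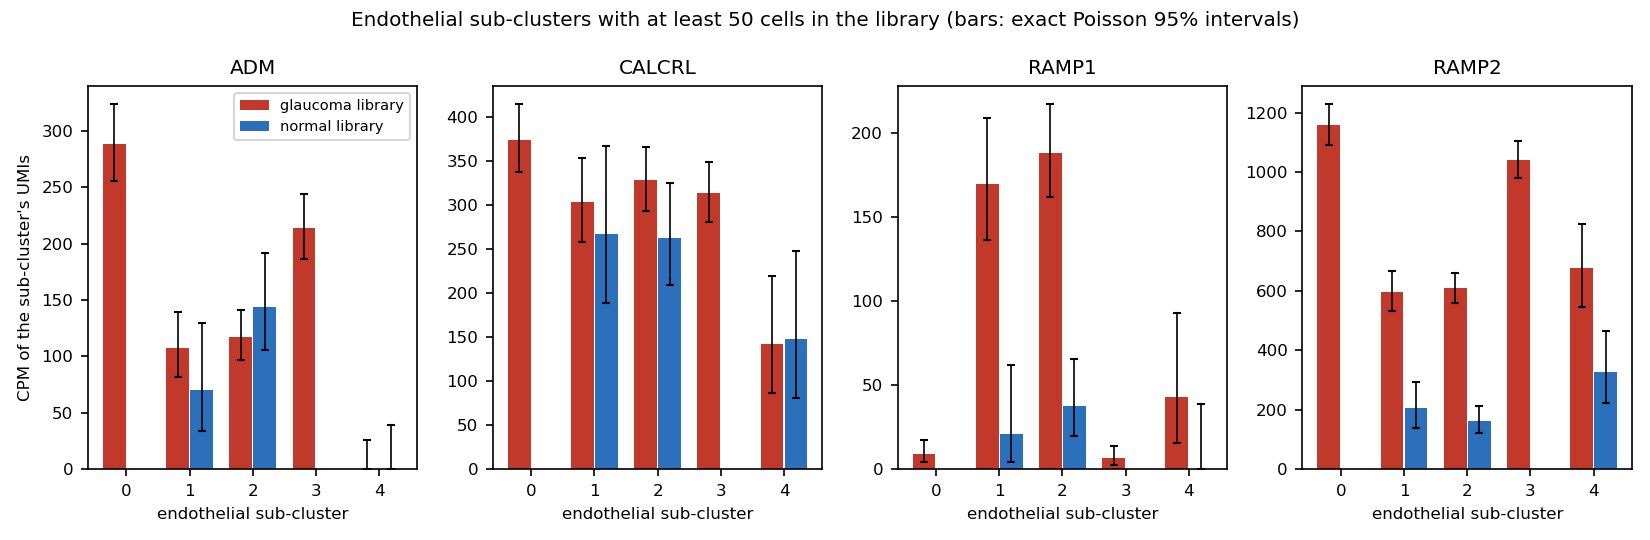
Level of ADM, CALCRL, RAMP1 and RAMP2 (vertical axes, CPM) in endothelial sub-clusters (horizontal axis) with at least 50 cells in the library, glaucoma in red and normal in blue, with exact Poisson 95% intervals. Sub-clusters 0 and 3 hold mainly lymphatic-type and 1 and 2 mainly vascular cells of the main grouping, and 4 is arterial-like. Only 3 and 4 were named by their own markers. The ADM bars of sub-cluster 4 are at 0 in both libraries.

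RAMP3, the alternative adrenomedullin-receptor partner, was barely seen. Its 8 UMIs lay in 8 cells of the glaucoma library, 5 of them vascular endothelium-like, 2 lymphatic-type and 1 trabecular meshwork-like. In the normal library none of 5385 cells had a UMI, which allows a UMI in up to 0.0557% of cells and limits detection at this depth, not the share of cells that express the gene. For normal vascular endothelium-like cells alone, 0 of 307 cells allows up to 4.92 CPM, above the level that 5 UMIs give in the glaucoma cells, so no difference was detectable at this depth.

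Receptor and partner were read together cell by cell. In the glaucoma library, 276 of 550 lymphatic-type cells (50.2%) and 232 of 639 vascular cells (36.3%) had UMIs of both CALCRL and RAMP2, and 34 of 307 normal vascular cells (11.1%) did. Among glaucoma vascular cells, RAMP2 was seen in 76.1% of those with CALCRL and in 70.4% of those without, at median depths of 3217 and 1810 UMIs. At 1000 UMIs the shares were 39.5% and 43.4%. In lymphatic-type cells they were 91.4% and 85.1%, and 66.2% and 67.4% at 1000 UMIs. In glaucoma endothelium-like cells of both kinds, then, RAMP2 was about as frequent in cells without a CALCRL UMI as in cells with one once depth was equal. Normal vascular cells gave 34.3% and 28.8%, and at 1000 UMIs 12.0% (6 of 50 cells, interval 4.53% to 24.3%) and 22.6% (16.7% to 29.5%), with overlapping intervals.

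In glaucoma stromal fibroblast-like cells the shares stood further apart. RAMP2 was seen in 51.2% of glaucoma cells with CALCRL (interval 44.2% to 58.2%) and in 26.3% of those without, at depths of 2543 and 2501 UMIs, and in 28.9% and 14.2% at 1000 UMIs. That group mixes clusters: within cluster 0, which carries more of both genes than cluster 7, the shares at 1000 UMIs were 30.4% (20.5% to 41.8%) and 24.1% (20.8% to 27.7%), with overlapping intervals. Normal stromal cells gave 33.2% and 20.0%, and 11.9% and 9.54% at 1000 UMIs. RAMP1 in glaucoma vascular cells was seen in 35.7% of cells with CALCRL and 14.4% of those without, at depths of 3217 and 1810 UMIs. At 1000 UMIs the shares were 16.4% (10.9% to 23.3%) and 10.9% (8.12% to 14.1%), with overlapping intervals. In muscle-like cells of the glaucoma library the RAMP2 shares of 46.0% and 21.4% came at depths of 5959 and 2908 UMIs, and at 1000 UMIs they were 9.20% and 8.05%. Ligand and receptor also met in the same cells: 21.8% of glaucoma lymphatic-type cells had UMIs of both ADM and CALCRL. ADM was seen in 39.7% of those with CALCRL and 32.3% of those without, at depths of 3006 and 2060 UMIs. At 1000 UMIs the shares were 15.5% (9.97% to 22.5%) and 19.4% (15.5% to 23.7%), with overlapping intervals.

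Other genes of the pathway were described from 4 lists. Of the 7 peptide family genes, ADM2 and CALCA had no named feature and ADM5, CALCR and IAPP had no UMI in kept cells. CALCB, a gene for a CGRP peptide, gave 89 UMIs in glaucoma and 300 in normal cells, with its highest level in cluster 3 (46.9 CPM over both). Among 6 genes for maturation, clearance and binding, 0 were higher and 1 was lower in muscle-like cells, where 7.07% of all genes were called. That gene was PAM, the enzyme that amidates adrenomedullin to its active form, at 191 and 420 CPM (log2 ratio -1.14). None of the 3 or 4 list genes compared was called in pericyte-like, vascular endothelium-like or trabecular meshwork-like cells. ACKR3, a scavenging receptor reported to bind adrenomedullin, was highest in vascular endothelium-like cells at 309 and 256 CPM (0.27).

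Downstream of the receptors, a list of 20 genes, mostly of cyclic AMP coupling but with the nitric oxide synthase NOS3 among them, gave few calls. Of 14 compared in trabecular meshwork-like cells, 11 in muscle-like and 11 in vascular endothelium-like cells, none was called, and their median log2 ratios were -0.02, -0.44 and -0.20 beside -0.01, -0.12 and -0.09 for all genes. In pericyte-like cells 1 of 6 was lower, PDE3A, a phosphodiesterase that breaks down cyclic AMP, at 98.3 and 204 CPM (-1.05), beside 7.4% of genes called there. Elsewhere ADCY5, an adenylyl cyclase, was lower in stromal fibroblast-like cells (-1.36, 1 of 12 called) and ARRB1, a beta-arrestin, was higher in macrophage-like cells (1.03, 1 of 8). Of 22 oxygen-responsive genes, 20 were named features. In trabecular meshwork-like cells, where ADM was lower, 2 of 16 were higher, SLC2A1 (1.56) and ANKRD37 (1.85), and 2 were lower, BHLHE40 (-1.65) and EPAS1 (-1.67), with a list median of -0.12 and 10.7% of all genes called. Vascular endothelium-like cells had 1 of 10 higher, again ANKRD37 (1.47), beside 3.52% of all genes. Muscle-like cells had NDRG1 higher (1.07) and BHLHE40 and P4HA1 lower (-1.02 and -1.12), of 13, beside 7.07%. Stromal fibroblast-like cells, a main source of ADM, had most calls, 6 of 14, beside 13.8% of all genes. SLC2A1 (1.16), ANKRD37 (2.08), PGK1 (1.02) and LDHA (1.37) were higher and EPAS1 (-1.55) and KDM3A (-1.08) lower. The SLC2A1 calls went with the mix of clusters. In stromal cluster 0 it was at 171 and 136 CPM, and in cluster 7 at 662 and 919, lower in glaucoma. Meshwork-like clusters 1 and 11 gave 531 and 322 and 184 and 115 CPM, short of 2-fold. The small cluster 15 gave 158 and 51.2. ANKRD37 kept its direction in clusters 0 (58.3 and 18.1 CPM) and 7 (98.3 and 27.1). In the trabecular meshwork-like cells, where ADM was lower, the list had calls in both directions. A link between ADM and these genes was not tested.

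The genes whose levels most resembled those of each gene were ranked over 18 profiles (cell groups of both libraries) among 10580 genes, by Pearson correlation of log2(CPM + 10). The profiles share libraries and clusters, so the values are a description. CPNE5 (r = 0.95), CREB3L1 (0.92) and SULF2 (0.91) were most like ADM. FLVCR2 and NRGN were among those most like CALCRL (0.90 and 0.88). RHOD, CD59 and MAOB were most like RAMP1 (0.80, 0.78 and 0.75). For RAMP2 they were FLVCR2 (0.87), DCHS1 (0.85) and CALCRL itself (0.83), while RAMP1 and CALCRL gave 0.32. RAMP3 had too few UMIs to be ranked.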

How the data were processed

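Unique molecular identifier counts per gene and cell barcode were used as deposited by the authors, 1 matrix a library. Per the file headers they were made with Cell Ranger 6.0.0, while the submitters' processing notes list Cell Ranger 4.0 and Seurat 3.0; the genome build and annotation are not given in the sources used here. The matrices hold 10624 glaucoma and 7028 normal barcodes (38765808 and 25042621 UMIs), 17 of them in both.

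Barcodes with at least 500 genes and under 20% of UMIs from 13 mitochondrial genes were kept. Doublets called with Scrublet at an expected 0.8% per 1000 cells were removed (296 and 45 cells). Both libraries were clustered together without integration (scanpy 1.11.5, 2000 variable genes with the 5 genes left out, 30 principal components, 15 neighbours, Leiden resolution 1). A cluster was named from marker genes detected in at least 10% of its cells at 2-fold over the median cluster, on a scale of CPM + 10. Among types with at least 3 such markers it took the one with most of its 10 leading genes, with lymphatic type put before vascular, and stayed unnamed where another type's genes led. This rule was revised 3 times after the clusters had been seen, and the resolution of the endothelial split was raised to 1 after it had been seen. A difference from the authors' cell types may come from these rebuilt names.

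Levels are CPM of a group's summed counts with exact Poisson 95% intervals, and shares of cells have exact Clopper-Pearson intervals. Thinned values use 1000 UMIs a cell, with shallower cells left out. The log2 ratio is glaucoma over normal with an exact conditional binomial interval. With 1 library a group there is no test between groups. A count of 0 allows up to 3 counts. The ratio step was tested on simulated counts. The rule for named genes took the 5 genes in every group compared, list genes that were called or among the 2 highest or 2 lowest ratios of their list in trabecular meshwork-like, muscle-like, pericyte-like and endothelium-like cells, and the 3 most similar genes, of which 1 is not reported here. The other clusters and genes named were chosen after their values were seen. The genes and lists were chosen with earlier results of these data known. No sequence is printed.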

Additional observations from a re-analysis of the deposited data

How the results depend on the processing

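No paired analysis was possible because each group has 1 library, and leaving out a replicate was not possible for the same reason. RAMP2 in vascular endothelium-like cells kept its direction and its call under all 12 alternatives. RAMP1 in trabecular meshwork-like cells (1.54) was 1.19 with doublets kept, 1.69 with every barcode, 1.23 under the stricter filter, 1.35 with the libraries clustered separately, 1.73 at resolution 2, 1.25 with thinned cells, 1.24 as the mean of each cell's CPM and 0.49 with the same cluster weights, the 1 alternative that lost the call; there each cluster counts alike in both libraries. ADM in stromal fibroblast-like cells (-0.10) was never called, at 0.35 with doublets kept, 0.24 with every barcode, 0.41 under the stricter filter, 0.37 with the 5 genes eligible for clustering, 0.21 at resolution 2, 0.27 with the same cluster weights and 0.14 centred on the median gene. CALCRL in muscle-like cells (-0.13) was 0.0913 with every barcode, 0.0898 with the same cluster weights and -1.21 under the stricter filter, which keeps fewer cells; the cause was not tested. The 6 called pairs of 17 became 11 of 38 without a UMI minimum, which compares more pairs, and 2 of 10 with thinned cells, which hold fewer counts. The shares of glaucoma cells with CALCRL that also had RAMP2 fell, with thinned cells, from 76.1% to 39.5% in vascular, from 91.4% to 66.2% in lymphatic-type, from 51.2% to 28.9% in stromal fibroblast-like and from 46.0% to 9.20% in muscle-like cells. ADM in trabecular meshwork-like cells stayed called lower under the 11 alternatives that gave a value, between -2.22 and -1.14, and RAMP2 in muscle-like cells ranged from -0.29 under the stricter filter to 1.18 with every barcode. Depth limits RAMP3 in every group and the 33 normal lymphatic-type cells.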

Other observations

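Stromal fibroblast-like clusters differed in the receptor genes they carried. Cluster 7, led by WIF1 and BMP3, had 20.0 CPM of CALCRL in glaucoma and 6.78 in normal cells (48 and 2 UMIs), with 152 and 207 CPM of RAMP1 and 79.6 and 33.9 of RAMP2. Cluster 0, led by PI16 and SFRP4, had 120 and 103 CPM of CALCRL. Cluster 16, with MIA and MFAP5 among its leading genes, had 355 CPM of RAMP1 and 171 CPM of RAMP2 in its 99 normal cells. Cluster 20, the normal cluster with 501 CPM of ADM, had 5.97 CPM of CALCRL from 2 UMIs.

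Over both libraries, ADCY4, an adenylyl cyclase, was highest in vascular endothelium-like cells at 157 CPM. RAPGEF3, a cyclic AMP-activated exchange factor, was also highest there at 137 CPM. So was NOS3, the endothelial nitric oxide synthase, at 377 CPM. PDE3A and ADCY5 were highest in muscle-like cells, at 305 and 149 CPM. MME, a membrane peptidase, was highest in myelinating Schwann cell-like cells at 289 CPM in glaucoma and 185 in normal cells. GPR182, a receptor of endothelial cells, had 71 and 21 UMIs, with its highest level in vascular endothelium-like cells.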
